A study of Homo sapiens with 16 samples.

Results

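CITED2, CITED4, CREBBP, EP300, NCOA1, NCOA2 and NCOA3 encode proteins that meet at, or work beside, the transactivation domains of the hypoxia-inducible factors (HIFs). They were taken by symbol from the table of estimated counts, which holds 63187 genes, and all 7 passed the filter on low counts, as did 19530 genes in all. The 16 RNA-seq libraries came from 4 groups, 4 libraries each, of SK-N-BE(2), a line grown from a human neuroblastoma whose MYCN gene is amplified. WT is the label of wild-type cells, and the other cells were transfected with a form of HIF-2α, the protein that EPAS1 encodes: FL is the full-length protein, and the study's design writes the other forms, NCTAD and cIDR, as ΔN-CTAD and Δc-IDR. Each group had 1 library in each of 4 labelled batches, so that libraries with the same number share a batch. All groups were cultured at 21% oxygen with 10% serum and without DMSO. The labels give neither the vector nor the residues removed, neither the hours since transfection nor any empty-vector treatment of WT. In a comparison with WT, transfection as such and HIF-2α therefore cannot be told apart.

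As background, HIF-α subunits carry 2 transactivation domains, and the C-terminal one (C-TAD) recruits CBP and p300, the paralogous histone acetyltransferases encoded by CREBBP and EP300, through their CH1 (TAZ1) domain. CITED2 and CITED4 bind the same CH1 domain and thereby compete with the HIF C-TAD, and CITED2 is itself known as a HIF-inducible gene. NCOA1 (SRC-1), NCOA2 (TIF2) and NCOA3 (SRC-3) are the p160 coactivators, best known from nuclear receptors, which bind CBP and p300 and can add to HIF transactivation. The comparison of the 4 groups asks whether the transcripts of these partners differed with full-length HIF-2α or the forms written as ΔN-CTAD and Δc-IDR.

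CITED2 lies on the minus strand of chromosome 6 (139371807 to 139374648), CITED4 on the minus strand of chromosome 1 (40861054 to 40862363) and CREBBP on the minus strand of chromosome 16 (3725054 to 3880713). EP300 lies on the plus strand of chromosome 22 (41092592 to 41180077), NCOA1 on the plus strand of chromosome 2 (24491254 to 24770702) and NCOA3 on the plus strand of chromosome 20 (47501887 to 47656872), in RefSeq coordinates of GRCh38.p14. The core of the HIF binding site, ACGTG or GCGTG on either strand, was looked for in the 250 bases before each RefSeq start. It was present in 6 of 11 such windows of 6 genes (NCOA2 had none in the table), against 43.2% of 35116 windows of all genes. ACGTG was present in 2 of the 11 windows, against 18.5% of all windows. The windows of the outermost start of CITED2 and of CREBBP are shown because these genes moved in opposite directions between batches. Capitals mark the motif:
CITED2 chr6:139374649-139374898, minus strand: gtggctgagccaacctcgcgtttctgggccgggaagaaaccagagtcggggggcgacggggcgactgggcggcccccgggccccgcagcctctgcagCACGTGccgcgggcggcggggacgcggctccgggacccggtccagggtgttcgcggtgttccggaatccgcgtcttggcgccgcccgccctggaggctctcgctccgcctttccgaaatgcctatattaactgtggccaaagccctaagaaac
CREBBP chr16:3880714-3880963, minus strand: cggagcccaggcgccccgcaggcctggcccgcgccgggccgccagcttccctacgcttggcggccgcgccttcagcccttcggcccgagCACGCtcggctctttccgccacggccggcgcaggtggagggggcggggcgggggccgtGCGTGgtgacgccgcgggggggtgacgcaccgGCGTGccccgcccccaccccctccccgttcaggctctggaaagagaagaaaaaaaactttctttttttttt

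The CITED2 window holds the palindrome CACGTG, so that ACGTG is read on both strands over overlapping bases, beginning 153 bases before the start. The CREBBP window holds 3 matches of the GCGTG form, beginning 161, 103 and 71 bases before the start, and 7.76% of all windows held at least 3. The other CITED2 windows, which overlap each other, held 1 match each, and the other CREBBP window held 0. The windows counted are therefore not all independent. The NCOA3 window also held 3 matches and the CITED4 window held 2, while the single EP300 window and the 3 NCOA1 windows held none. A match describes the letters and does not show that a factor binds there.

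Library totals ran from 38.6 to 56.1 M (mega) counts. EPAS1, counted from the endogenous gene and the transfected sequence together, lay between 13.0 and 28.1 CPM (counts per 1 M of the TMM-scaled total) in the 4 WT libraries and between 1320 and 5852 CPM in the 12 transfected ones, in accord with the group labels. Neuroblastoma identity genes were abundant (PHOX2A at least 462 CPM, MYCN at least 2590 CPM), except TH, with a median of 2.37 CPM. Of 14 markers of mesenchymal, immune, epithelial and endothelial cells, PTPRC, CD3E, LYZ, COL1A2 and PRRX1 had a median of 0 CPM. TWIST1 reached a median of 96.3 CPM, KRT19 one of 7.54 CPM and COL1A1 one of 2.41 CPM. The FL library of batch 1 stood apart in its long transcripts. CREBBP, EP300, NCOA1, NCOA2 and NCOA3 have long transcripts, so fitted differences without that library are given below. The part of transcript length in them was not tested. The FL library of batch 4 had 2.55% of its counts on mitochondrial genes, against 6.2 to 10.3% in the other 15. Nothing in the labels says whether the batches were separate cultures, so p-values measure the spread between these libraries.

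Per transcript length, and on average over the 16 libraries, the 2 acetyltransferases were the most abundant of the 7 genes. EP300 averaged 17.9 ± 3.18 TPM (transcripts per 1 M; SD, n = 16) and CREBBP 16.4 ± 3.89 TPM. These neighbours did not differ beyond their spread, which ran from 11.6 to 23.0 TPM for EP300 and from 9.96 to 22.6 TPM for CREBBP. The middle of the order was held by NCOA2 at 9.64 ± 2.01 TPM, CITED2 at 8.67 ± 1.84 TPM and NCOA3 at 6.28 ± 0.825 TPM. NCOA2 and CITED2 overlapped over most of their ranges (4.49 to 12.8 and 6.33 to 12.6 TPM), while NCOA3 (4.45 to 7.71 TPM) overlapped CITED2 only at the low end. The order depended on batch. In batch 2 CITED2 averaged 11.44 TPM, level with CREBBP (11.44 TPM) and above NCOA2 (8.71 TPM). In batches 1, 3 and 4 CITED2 averaged 7.742 TPM, below NCOA2 (9.955 TPM). NCOA1 was the lowest of the p160 genes at 4.18 ± 0.980 TPM. CITED4 was near the limit of detection, at 0.186 ± 0.121 TPM and 1 to 19 counts per library, against 414 to 919 counts for CITED2.

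**Figure D1:**
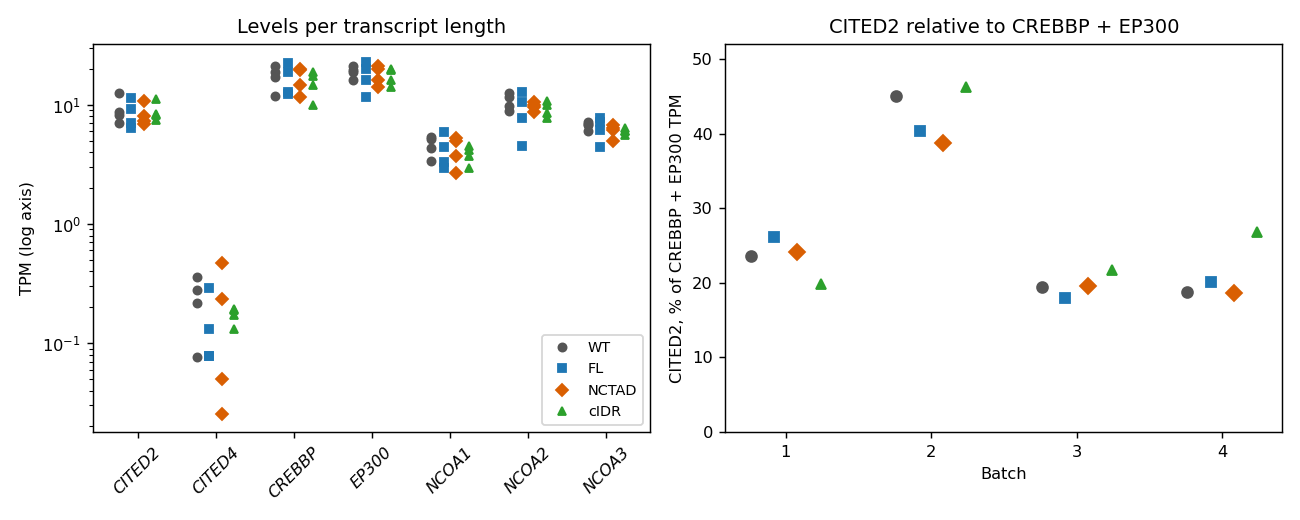
Left, TPM (log axis) of each gene in 16 libraries, by group (marker); right, CITED2 TPM as a percent of the summed TPM of CREBBP and EP300 in each library, by batch. EP300 and CREBBP are highest on average and CITED4 lies far below. In the batch 2 libraries of WT and cIDR, CITED2 lies above CREBBP. The percentage is 38.7 to 46.2 in batch 2 and 18.0 to 26.8 in the other batches.

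None of the 7 genes passed the test between any of the 4 groups. In each of the 6 comparisons 0 of 7 passed an adjusted p of 0.05 in edgeR's quasi-likelihood test with batch as a block, 0 had an unadjusted p under 0.05, and 0 passed with DESeq2 or with limma on TPM. Few genes changed at all, so these counts lie close to the background: 20 of 19530 genes, 0.102%, in FL against WT, 0.456% in NCTAD against WT, 0.486% in cIDR against WT, 0% in NCTAD against FL (where 721 genes had unadjusted p-values under 0.05), 0.0307% in cIDR against FL and 0.00512% in cIDR against NCTAD. The smallest unadjusted p among the 42 estimates was 0.137.

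CITED2, the competitor, was measured at 12.4, 16.9, 11.8 and 9.97 CPM in the WT libraries of batches 1 to 4 and at 10.1, 15.8, 10.5 and 12.8 CPM in the FL libraries. It stood at 10.7, 15.5, 11.8 and 11.6 CPM in NCTAD and at 11.8, 16.2, 12.7 and 12.1 CPM in cIDR. The groups overlapped fully, and the second value was the highest in each. The differences from WT were −0.06 ± 0.09 for FL, −0.04 ± 0.09 for NCTAD and 0.05 ± 0.09 for cIDR (log2 fold change ± SE), with edgeR adjusted p of 0.946, 1 and 0.999. The 95% interval for cIDR ran from −0.133 to 0.240, so a rise of CITED2 of more than 0.240 on the log2 scale lay outside it. The difference of cIDR from NCTAD was positive in each of the 4 batches, from 0.06 to 0.13, but was as small as its own error (0.09 ± 0.09, adjusted p = 1 in edgeR).

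CITED4, the other competitor, had too few counts for a comparison of groups. It had a mean of 0.145 ± 0.0244 CPM in cIDR, 0.163 ± 0.167 CPM in NCTAD, 0.119 ± 0.0801 CPM in FL and 0.188 ± 0.0956 CPM in WT (SD, n = 4 each). The interval of the log2 difference of FL from WT ran from −1.90 to 0.51, and those of the other comparisons were as wide. At these counts the group comparisons of CITED4 leave large differences in either direction within their intervals.

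CREBBP was the most tightly measured of the 7 genes between groups. It stood at 99.6, 66.7, 116.5 and 103.3 CPM in WT, at 94.4, 67.9, 103.1 and 117.1 CPM in FL, at 95.9, 66.7, 108.1 and 106.1 CPM in NCTAD and at 103.9, 57.7, 108.5 and 92.2 CPM in cIDR. The groups overlapped, the widest spread within a batch was that of batch 4, and the second value of every group was its lowest. FL differed from WT by −0.01 ± 0.07 (95% interval −0.156 to 0.139), NCTAD by −0.03 ± 0.07 and cIDR by −0.10 ± 0.07 (interval −0.247 to 0.0481).

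EP300 stood at 114.1, 89.0, 125.6 and 106.9 CPM in WT and at 73.2, 93.6, 119.0 and 129.4 CPM in FL. It stood at 97.0, 89.9, 127.6 and 121.1 CPM in NCTAD and at 118.0, 84.4, 120.3 and 97.5 CPM in cIDR. The groups overlapped, and the FL library of batch 1 was the lowest of all 16. FL differed from WT by −0.08 ± 0.12 (95% interval −0.334 to 0.183, edgeR adjusted p = 0.946). Within batches this difference was −0.64, 0.07, −0.08 and 0.28, and the fitted value turned to 0.06 without the FL library of batch 1 and was −0.20 without that of batch 4.

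The p160 genes were likewise called in no comparison. NCOA2 stood at 44.1, 36.9, 52.3 and 53.5 CPM in WT and at 25.2, 35.0, 50.3 and 54.3 CPM in FL, so that only batch 1 held a large difference. FL differed from WT by −0.20 ± 0.13 (adjusted p = 0.920 in edgeR), the estimate with the smallest unadjusted p, and by −0.04 without the FL library of batch 1 and −0.34 without that of batch 4. NCTAD and cIDR differed from WT by −0.05 ± 0.13 and −0.11 ± 0.13 in NCOA2. NCOA1 stood at 20.6, 14.3, 25.4 and 23.7 CPM in WT, and its differences were −0.07 ± 0.10 for FL, −0.03 ± 0.10 for NCTAD and −0.15 ± 0.10 for cIDR. NCOA3 stood at 36.9, 38.3, 37.3 and 33.2 CPM in WT, and its differences were −0.06, −0.04 and −0.07, each ± 0.08. In cIDR, NCOA3 lay below WT in all 4 batches, by 0.02 to 0.14 on the log2 scale, with an edgeR adjusted p of 0.999. These 3 comparisons share the WT libraries, so their common sign is no separate evidence.

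That FL library was low in long transcripts generally. Over 1317 genes with a longest coding transcript of at least 7000 bases and 3856 of at most 3000 bases, the median deviation of long genes from their mean over the libraries, minus that of short genes, was −0.37 on the log2 scale there. It was −0.22 in the NCTAD library of batch 1 and between −0.08 and 0.13 in the other 14. The longest coding transcripts of CREBBP (10803 bases), EP300 (9587), NCOA2 (8447), NCOA3 (7939) and NCOA1 (7405) are all in the long class, and those of CITED2 (2354) and CITED4 (1316) in the short class. In batch 1, FL against WT was −0.80 for NCOA2, −0.64 for EP300, −0.40 for NCOA3 and −0.31 for NCOA1, but −0.08 for CREBBP, the longest. Over batches 2 to 4 the same differences averaged −0.04, 0.09, 0.05, −0.01 and 0.01. The drop in batch 1 was not confined to long genes. CITED2, of the short class, stood at −0.30 there and averaged 0.03 over batches 2 to 4. CITED4, with few counts, stood at 0.13 in batch 1. Refitted without that library, FL against WT took the other sign for CREBBP (0.01), NCOA1 (0.00226) and NCOA3 (0.02) as for EP300. NCTAD against FL took the other sign for EP300 (from 0.07 to −0.08), NCOA2 (from 0.15 to −0.02), NCOA1 (from 0.04 to −0.05), NCOA3 (from 0.02 to −0.07) and CITED2 (from 0.02 to −0.02). In cIDR against FL the sign turned for EP300 (from 0.02 to −0.125) and NCOA2 (from 0.09 to −0.08). None of these estimates was past the threshold with or without the library in edgeR. The part of transcript length in these values was not tested.

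**Figure D2:**
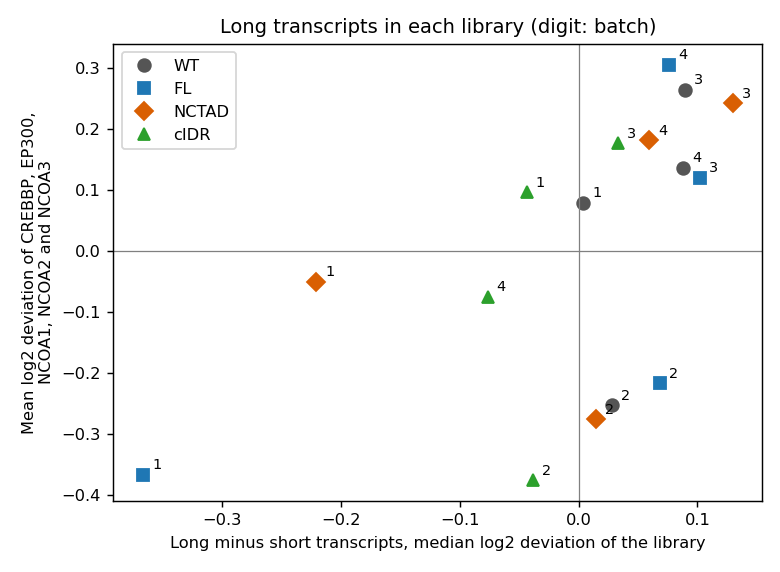
Each point is a library (marker: group; digit: batch): the x axis gives the median log2 deviation of long minus short transcripts, the y axis the mean log2 deviation of the 5 long genes CREBBP, EP300, NCOA1, NCOA2 and NCOA3 from their means. The FL library of batch 1 lies at −0.37 on x and −0.37 on y; the 4 libraries of batch 2 are also low on y, from −0.38 to −0.22, with x between −0.04 and 0.07.

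For each of these genes, batch accounted for more of the variance than group did. Batch accounted for 92.1% of the variance of log2 CPM of CREBBP, 82.1% for NCOA1 and 80.6% for CITED2, against 53.8% for the median tested gene. It accounted for 57.8% for NCOA2, 55.1% for EP300, 52.3% for CITED4 and 29.9% for NCOA3. The groups accounted for 1.64% (CREBBP) to 8.64% (NCOA2), against a median of 7.85%.

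Batch 2 differed from the other batches in most of these genes: CITED2 rose, CREBBP, EP300, NCOA1 and NCOA2 fell, and NCOA3 did not pass the test. These 5 genes were called in the contrast of batch 2 with the mean of batches 1, 3 and 4 within the same model. CITED4 was called too, but it passes the low-count filter only with batch 2 in the data, so its call is no support. The background was high: 53.9% of 19530 genes were called in this contrast, 27.7% as higher and 26.1% as lower. Every batch is a single batch of 4 libraries, so the test measures the spread between libraries and not between batches, and what set batch 2 apart is not given in the labels. Batch 2 was also singled out with earlier results of these data known.

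**Figure D3:**
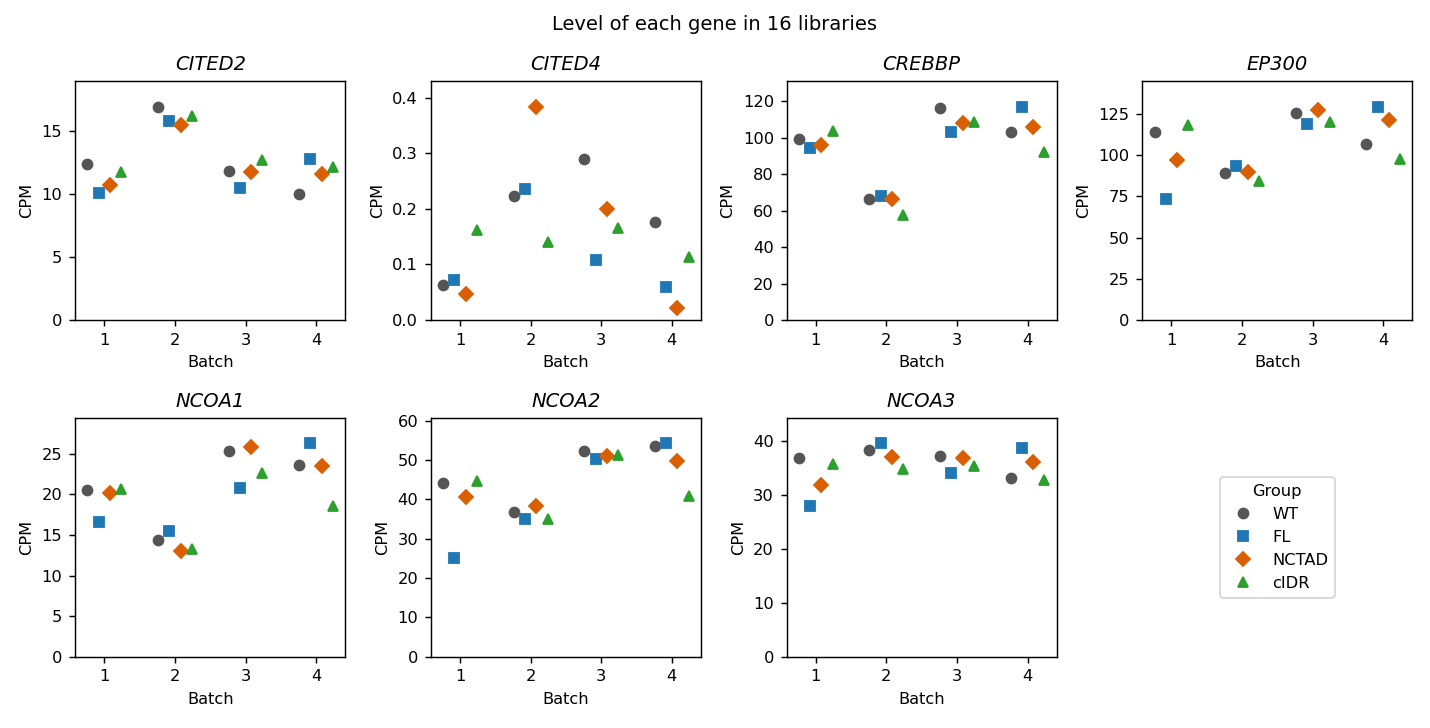
CPM of each gene in the 16 libraries, by batch (x axis) and group (marker), each panel with its own axis from 0. In batch 2 all 4 libraries are above the rest for CITED2 and below the rest for CREBBP and NCOA1, while NCOA3 overlaps.

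CITED2 stood at 16.9, 15.8, 15.5 and 16.2 CPM in the batch 2 libraries of WT, FL, NCTAD and cIDR, and between 9.97 and 12.8 CPM, with a median of 11.8, in the other 12. All 4 batch 2 libraries lay above all others, which was true of 14.4% of all tested genes. The rise was 0.48 ± 0.07 on the log2 scale, or 1.40-fold (95% interval 0.337 to 0.631, edgeR adjusted p = 3.12e-05). It was 0.41 in cIDR, 0.45 in NCTAD, 0.52 in FL and 0.58 in WT, so the rise was present in cells without a transfected HIF-2α too. In a model with a term for batch 2 in each group, which leaves 6 residual degrees of freedom, the size of the batch 2 difference was not called as differing between groups for CITED2 (edgeR adjusted p = 1, unadjusted p = 0.898). The same held for the other 6 genes (0 of 7 at an unadjusted p under 0.05), where 0.0358% of all tested genes were called.

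CITED4 had 8 to 19 counts in the batch 2 libraries and 1 to 12 in the others, and the ranges overlapped. Without batch 2, CITED4 did not pass the low-count filter, so the gene was tested through the batch in which it is high, and its difference of 1.13 ± 0.42 on the log2 scale (edgeR adjusted p = 0.0339) is given as a description. The call was lost in 10 of 19 fits that left out a library or batch (without the NCTAD library of batch 2, 0.70 with an adjusted p of 0.257 in edgeR) with DESeq2 (adjusted p = 0.0552) and without the low-count filter (adjusted p = 0.0519). In cIDR the difference was −0.04.

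CREBBP stood at 66.7, 67.9, 66.7 and 57.7 CPM in the batch 2 libraries of WT, FL, NCTAD and cIDR, and between 92.2 and 117.1 CPM in the others. There was no overlap, which held, with batch 2 below the other 12 libraries, for 14.6% of all tested genes. The fall was −0.68 ± 0.06 on the log2 scale (95% interval −0.811 to −0.559, edgeR adjusted p = 2.13e-07), or 1.61-fold. By group it was −0.81 in cIDR, −0.63 in NCTAD, −0.62 in FL and −0.67 in WT.

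EP300, the paralog of CREBBP, fell by a smaller estimate. It stood at 89.0, 93.6, 89.9 and 84.4 CPM in batch 2, and between 73.2 and 129.4 CPM, with a median of 118.5, in the others. Batch 2 overlapped with 1 of the 12, the FL library of batch 1. The fall was −0.33 ± 0.10 on the log2 scale, or 1.26-fold (edgeR adjusted p = 0.0124). Without that library it was −0.37 (adjusted p = 0.000173 in edgeR) and the ranges no longer overlapped, as for 18.1% of all tested genes on the lower side. The call was lost without batch 3 (−0.27, adjusted p = 0.0885) and without the cIDR library of batch 2 (−0.31, adjusted p = 0.0512), and on log2(TPM + 1) with limma (−0.24, adjusted p = 0.139).

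NCOA1 had the largest fall of the p160 genes. It stood at 14.3, 15.5, 13.1 and 13.2 CPM in batch 2 and between 16.6 and 26.3 CPM in the others. There was no overlap, as for 14.6% of all tested genes on the lower side. The fall was −0.65 ± 0.09 on the log2 scale, or 1.56-fold (95% interval −0.833 to −0.458, edgeR adjusted p = 2.02e-05), and ran from −0.82 in NCTAD to −0.43 in FL. NCOA2 stood at 36.9, 35.0, 38.4 and 35.1 CPM in batch 2 and between 25.2 and 54.3 CPM in the others, again overlapping with the FL library of batch 1 alone. Its fall was −0.34 ± 0.11, or 1.27-fold (edgeR adjusted p = 0.0139), and −0.39 without that library. The NCOA2 call was lost without batch 3 (−0.27, adjusted p = 0.0983), without the WT library of batch 2 (−0.31, adjusted p = 0.0593) and on log2(TPM + 1) (−0.14, adjusted p = 0.472). For both NCOA2 and EP300 the mean of batch 1 (38.6 and 100.6 CPM) was nearer to batch 2 (36.4 and 89.2 CPM) than to batch 3 (51.2 and 123.1 CPM). Without the FL library the batch 1 mean of NCOA2 was 43.1 CPM, still nearer to batch 2, and that of EP300 was 109.7 CPM, nearer to batch 3.

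NCOA3 was the exception. It stood at 38.3, 39.5, 36.9 and 34.8 CPM in batch 2 and between 28.0 and 38.6 CPM in the others, and the ranges overlapped. The difference of 0.11 ± 0.07 on the log2 scale (95% interval −0.0333 to 0.251) did not pass the test (edgeR adjusted p = 0.183). An increase of up to 0.251 remains within its interval, and a fall of the size seen in NCOA1 lies outside it.

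**Figure D4:**
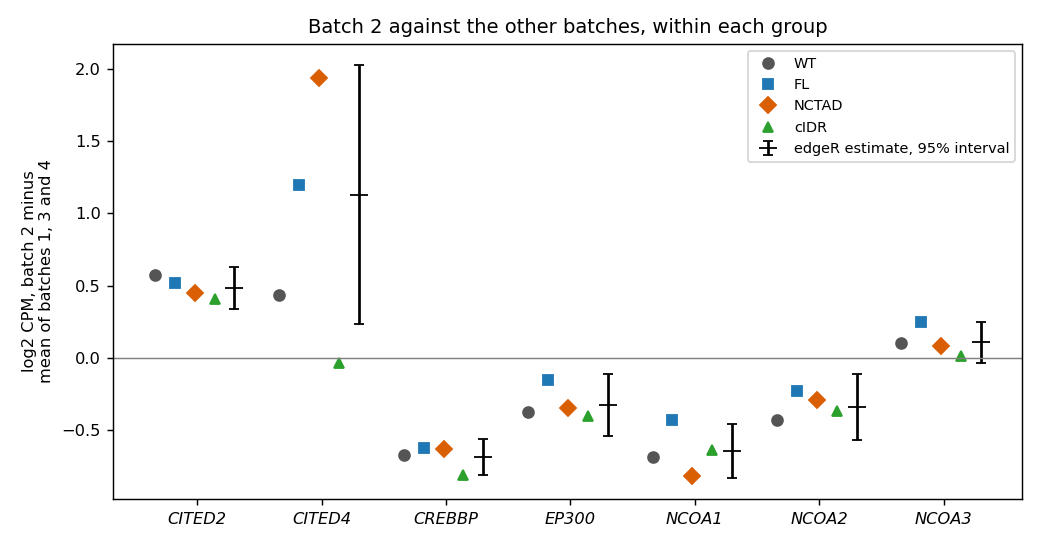
Log2 CPM of batch 2 minus the mean of batches 1, 3 and 4 for each gene, within each group (markers), and the edgeR estimate with its 95% interval (black). CITED2 lies above 0 and CREBBP, EP300, NCOA1 and NCOA2 below 0 in each of the 4 groups; CITED4 ranges from −0.04 to 1.94.

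The estimates for paralogs can be set side by side, as a description of pairs chosen after their values were seen. The batch 2 difference of CREBBP was lower than that of EP300 in each of the 4 groups, by 0.36 ± 0.09 on the log2 scale (mean ± SD over groups). NCOA1 was lower than NCOA3 by 0.75 ± 0.12 and than NCOA2 by 0.31 ± 0.15, and NCOA2 lower than NCOA3 by 0.44 ± 0.07, again in 4 of 4 groups. The 4 libraries behind each value belong to a single batch, and these differences between genes were not tested.

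The ratio of competitor to acetyltransferase transcripts was highest in batch 2 in each group. It is formed from CITED2, CREBBP and EP300, whose shifts in batch 2 are given above. The ratio therefore restates those shifts and is no separate evidence. CITED2 TPM amounted to 42.5 ± 3.64% of the summed TPM of CREBBP and EP300 in batch 2 (SD, n = 4), and by library to 45% (WT), 40.3% (FL), 38.7% (NCTAD) and 46.2% (cIDR). In the other 12 libraries it amounted to 21.4 ± 3.05%, from 18.0 to 26.8%, and the ranges did not overlap. By group it amounted to 28.6 ± 12.1% in cIDR, 25.2 ± 9.29% in NCTAD, 26.1 ± 10.1% in FL and 26.7 ± 12.4% in WT, with the batch 2 library the highest in each group.

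Other measures of batch 2 stand beside these genes. Of the 1317 long genes 39.8% were called lower in batch 2 and 21.4% higher, and of the 3856 short genes of the same minimum level 44.2% and 19.8%. The median differences were −0.08 for long and −0.10 for short genes, and the 5 long genes described here lay at −0.68 (CREBBP) to 0.11 (NCOA3). Library totals of batch 2 ran from 47.8 to 55.3 M counts, within the range of the others. Of 8 tested markers of other cell types, 3 were higher in batch 2 (COL1A1, KRT8 and CDH5) and 0 lower, a share near the 27.7% of all tested genes that were higher. The summed level of 13 of the 14 markers, without TWIST1, was 15 to 17.4 CPM in batch 2 and 10.4 to 14.3 CPM elsewhere. The part of these measures in the shifts was not tested.

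Genes of the wider pathway, from lists chosen with earlier results known, were called in batch 2 as follows, where 27.7% of all tested genes were higher and 26.1% lower. Of 18 HIF targets, 15 were higher and 0 lower, with a median log2 difference of 1.09 against 0.03 over all tested genes. PFKFB4, a bifunctional glycolytic regulator, rose by 2.24 ± 0.05, PDK1, the kinase that inhibits pyruvate dehydrogenase, by 2.81 ± 0.08 and BNIP3, a mitophagy receptor, by 1.73 ± 0.06. Among HIF subunits and the C-TAD asparaginyl hydroxylase, 3 of 6 were higher and 1 lower: HIF3A was higher by 3.30 ± 0.24, HIF1AN, which encodes that hydroxylase and thereby limits CBP and p300 binding, by 0.21 ± 0.04, and ARNT2 was lower (−0.54 ± 0.12). In WT cells EPAS1 itself stood at 28.1 CPM in batch 2 and at 13.0 to 17.3 CPM in the others. In the transfected groups EPAS1 did not stand high in batch 2: it was 1320 CPM in NCTAD and 2189 CPM in cIDR, the lowest of each group, and 2001 CPM in FL, between 1691 and 3580 CPM in the other FL libraries.

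Of 5 other CITED and NCOA genes, 4 were lower in batch 2 and 0 higher, with a median of −0.33, where 26.1% of all tested genes were lower. NCOA5 fell by 0.84 ± 0.04, CITED1, the third CITED gene measured, by 0.78 ± 0.11 and NCOA6 by 0.33 ± 0.05. CITED1, at a mean of 4.91 CPM, thus moved against CITED2. Of 22 other acetyltransferases and coactivators, 13 were lower and 2 higher, with a median of −0.16. In that list MED1, a Mediator subunit, fell by 0.46 ± 0.07 and RUVBL1 by 0.32 ± 0.04, while CDK19, a Mediator kinase, rose by 0.65 ± 0.07. Of 10 corepressors and deacetylases, 4 were higher and 3 lower, shares near those of all tested genes (27.7% and 26.1%), among them TRIM28 (−0.52 ± 0.05) and SIRT1 (−0.55 ± 0.06). Of 14 tested transcription factors that bind CITED2 or CBP and p300, 8 were lower and 4 higher, among them ETS1 (0.79 ± 0.06) and STAT2 (0.60 ± 0.08). Of 15 adrenergic neuroblastoma markers, 7 were higher and 6 lower.

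Between the groups, calls in the same lists were limited to HIF targets, adrenergic markers and EPAS1 itself. Of the 18 HIF targets, 1 was higher in FL against WT, 8 in NCTAD against WT and 10 in cIDR against WT, with 0 lower, and 2 in cIDR against FL. Of all tested genes, 0.102%, 0.456%, 0.486% and 0.0307% were called in these comparisons, in the same order. Of the other CITED and NCOA genes, the other coactivators, the corepressors and the CBP- and p300-binding factors, 0 were called in any of the 6 comparisons in edgeR. At most 0.486% of all tested genes were called in a comparison, so the counts for these lists lie close to the background. NCOA7 was the smallest in unadjusted p among the relatives in FL against WT (−0.17 ± 0.09, unadjusted p = 0.0774, adjusted p = 0.920). Among adrenergic markers, 3 were higher in NCTAD against WT and 2 in cIDR against WT, DBH and TH in both. CITED2, a known HIF target, was thus called higher in 0 of the 3 comparisons with WT by edgeR, DESeq2 or limma.

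With batch means removed, the long genes varied together over the 16 libraries. Pearson's r was 0.95 between EP300 and NCOA3, 0.89 between EP300 and NCOA2 and 0.66 between CREBBP and EP300, and the lowest among the 5 long genes was 0.52, between CREBBP and NCOA2. CITED2 had an r of 0.31 with CREBBP, 0.33 with NCOA1, 0.35 with NCOA2, 0.56 with EP300 and 0.66 with NCOA3. These are descriptions over libraries that share groups and batches, and the FL library of batch 1 was the farthest from the median in EP300, NCOA2 and NCOA3. Over 12368 genes compared in this way, those most like EP300 were TASOR2 (r = 0.98), AFF4 (0.98) and ANKRD17 (0.98). Their longest coding transcripts span 8732, 9552 and 10784 bases, long like that of EP300. Without the 2 libraries farthest from the median of EP300, r was 0.96, 0.94 and 0.95. NCOA3 was most like DYNC2H1 (0.96), MAP3K1 (0.94) and TASOR2 (0.94), and NCOA2 most like RAB3GAP2, SKIC3 and the pseudogene RALGAPA1P1 (each 0.98).

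CREBBP was most like NSD3, DAGLA and DHX29, with r from 0.866 to 0.879 and from 0.845 to 0.849 without the farthest 2 libraries. NCOA1 was most like ZNF35 (0.95), HS3ST3A1 (0.92) and SECISBP2L (0.89), the first 2 of which have short transcripts. CITED2 was most like ZFP82 (0.82), CPEB2 (0.81) and KLF5 (0.81), with 0.75, 0.79 and 0.81 without its farthest 2 libraries. CITED4 was most like NPR2, FGL1 and LTK, with r of 0.79, 0.77 and 0.76, and of 0.77, 0.57 and 0.62 without its farthest 2 libraries, on its 1 to 19 counts.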

How the data were processed

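Per the labels' protocols, mRNA was selected by poly(A) from 250 ng of total RNA, and the stranded libraries were amplified over 13 PCR cycles. The deposited estimated counts per gene carry no scaling to depth or length, and the deposited TPM values are scaled by the authors to transcript length and to a common sum. The submitters' processing notes name fastp, STAR, Salmon and featureCounts, and GRCh38; versions, strand setting and annotation release are not given in the sources used here. Column names of the tables call the WT group control, the FL group wild type, the NCTAD group NTAD and the line BE2c. Groups here follow the sample labels.

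Estimated counts, 15.5% of them not whole, were rounded. Genes were filtered with filterByExpr by group and tested in edgeR 4.0.16 (R 4.3.3; quasi-likelihood) with TMM scaling, group and batch as terms over the 16 libraries, and Benjamini-Hochberg adjustment over 19530 genes at 0.05. A test of whether the batch 2 difference varied between groups, added after seeing the data, used 10 coefficients. The pairing by batch comes from the labels: deviations from group means correlated with a mean r of 0.308 (0.0674 to 0.712) within a batch and −0.0945 between batches. The biological coefficient of variation was 0.108 with the batch term and 0.245 without. Log2 CPM used a prior count of 2. No 2 libraries of a group were copies (chi-square per degree of freedom at least 6.98). Tests were checked on simulated data. The SE of a fold change is the estimate divided by the square root of F.

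Alternatives were median-of-ratios size factors, no filter, DESeq2 1.42.0, limma 3.58.1 on log2(TPM + 1), no batch term, no group term, and each library or batch left out. Transcript lengths are the longest coding transcripts of GENCODE 29, found for 94% of the 10294 genes with a mean log2 CPM of at least 3. Windows before start sites are from RefSeq (GRCh38.p14). Named genes are the 7, EPAS1, per gene the 3 most alike by Pearson's r of batch-centred log2 CPM (mean at least 1), and per list up to 3 called genes with the smallest p, or else up to 2; some of these are not reported here. The genes and lists were chosen with earlier results of these data known. Figures were drawn with matplotlib 3.10.9 (Python 3.11.15).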

Additional observations from a re-analysis of the deposited data

Results flagged for a closer look

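Of 28 sets of 4 libraries (7 genes in 4 groups), 1 had a library far from the other 3. NCOA3 in the NCTAD library of batch 1 stood at 31.8 CPM, and the nearest NCTAD library at 36.1 CPM, a gap of 0.834 of the group's range. About 1 in 20 sets is picked out by chance under this criterion. That library also had a low long-minus-short transcript median (−0.22 on the log2 scale), and the part of this in the NCOA3 value was not tested.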

How the results depend on the processing

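None of the 7 genes was called in any of the 6 group comparisons under any alternative in which it was tested (708 recomputed fold changes, lowest adjusted p 0.527; CITED4 did not pass the filter without batch 2), though 84 of these small differences took the other sign. In the contrast of batch 2, 4 to 6 of the 7 genes were called and no sign changed; CITED2, CREBBP and NCOA1 passed in every fit, while the losses of CITED4, EP300 and NCOA2 are given above, the cause not tested. At 1 to 19 counts per library, CITED4 had the widest intervals of the 7 genes. Without the low-count filter, the genes called over all were 68 in FL against WT, 149 in NCTAD against WT, 145 in cIDR against WT, 18 in NCTAD against FL, 37 in cIDR against FL, 13 in cIDR against NCTAD. With DESeq2, the genes called over all were 58 in FL against WT, 168 in NCTAD against WT, 156 in cIDR against WT, 12 in NCTAD against FL, 46 in cIDR against FL, 21 in cIDR against NCTAD. With limma on log2(TPM + 1), the genes called over all were 36 in NCTAD against WT, 49 in cIDR against WT, 0 in cIDR against FL, 0 in cIDR against NCTAD. With no replicate block (group as the only term), the genes called over all were 2 in FL against WT, 5 in NCTAD against WT, 2 in cIDR against WT, 0 in cIDR against FL, 0 in cIDR against NCTAD. The cause was not tested. The counts with the block were 20 in FL against WT, 89 and 95 for NCTAD and cIDR against WT, 0 in NCTAD against FL, 6 in cIDR against FL and 1 in cIDR against NCTAD. With a library or batch left out, they ran from 5 to 23 in FL against WT, from 32 to 83 in NCTAD against WT, from 36 to 72 in cIDR against WT, from 0 to 5 in NCTAD against FL, from 0 to 10 in cIDR against FL, from 0 to 2 in cIDR against NCTAD. The block changed no call among the 7 genes.

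Signs turned, all without a call, on log2(TPM + 1) for CITED2 in cIDR against WT (−0.0381), CITED2 in NCTAD against FL (−0.0182), CREBBP in NCTAD against FL (0.00331), NCOA3 in NCTAD against FL (−0.0474), CITED4 in cIDR against NCTAD (−0.015), without the filter for NCOA3 in cIDR against FL (0.00427) and with no replicate block for CITED4 in cIDR against NCTAD (−0.181). With a library or batch left out, log2 differences spanned 0 as follows. CITED2 ran from −0.198 to 0.0141 in FL against WT, from −0.132 to 0.0243 in NCTAD against WT, from −0.0405 to 0.116 in cIDR against WT, from −0.0328 to 0.105 in NCTAD against FL. CITED4 ran from −0.944 to 0.0749 in NCTAD against WT, from −0.727 to 0.1 in cIDR against WT, from −0.297 to 0.635 in NCTAD against FL, from −0.353 to 0.645 in cIDR against NCTAD. CREBBP ran from −0.0881 to 0.0447 in FL against WT, from −0.0698 to 0.0439 in NCTAD against FL. EP300 ran from −0.208 to 0.0819 in FL against WT, from −0.0762 to 0.0682 in NCTAD against WT, from −0.179 to 0.0292 in cIDR against WT, from −0.0764 to 0.183 in NCTAD against FL, from −0.174 to 0.176 in cIDR against FL, from −0.166 to 0.0441 in cIDR against NCTAD. NCOA1 ran from −0.189 to 0.00226 in FL against WT, from −0.0829 to 0.0202 in NCTAD against WT, from −0.0535 to 0.143 in NCTAD against FL, from −0.199 to 0.067 in cIDR against FL. NCOA2 ran from −0.102 to 0.000571 in NCTAD against WT, from −0.0178 to 0.269 in NCTAD against FL, from −0.117 to 0.261 in cIDR against FL, from −0.175 to 0.0413 in cIDR against NCTAD. NCOA3 ran from −0.161 to 0.0365 in FL against WT, from −0.102 to 0.0124 in NCTAD against WT, from −0.0664 to 0.0886 in NCTAD against FL, from −0.119 to 0.0684 in cIDR against FL, from −0.0946 to 0.0099 in cIDR against NCTAD.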
